A study of Mus musculus with 24 samples.

Results

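Mitochondrial DNA is a small circular genome, and the table of counts lists 37 of its genes among 33000 genes in all. They were taken as every gene placed on the mitochondrial chromosome, chrM, and comprise 13 mRNA, 2 rRNA and 22 tRNA genes. Counts came from 24 3'Pool-seq libraries of frontal cortex, a method that copies RNA from its polyA tail with oligo-dT primers and sequences the 3' ends. The RNA was from 3 wild-type (WT) C57BL/6 mice and from 3 homozygous GFAP-IL6 mice, whose transgene has astrocytes make interleukin 6 under the Gfap promoter. All mice were 3 months old and each gave 4 libraries, so the 6 mice are the replicates and libraries of a mouse share their RNA. For tagmentation, in which a transposase cuts amplified cDNA, either 2 ng or 1 ng was used, and each library carries the letter A or B. What separates A from B is not given in the labels. The method pools samples before cDNA amplification and tagmentation, but which libraries shared a pool is not given. Libraries of a set may thus have shared a reaction, so tests over mice do not cover the spread between reactions.

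Both strands of mitochondrial DNA are transcribed into long RNAs that run through many genes. In most places a tRNA lies between its neighbours, and excision of the tRNAs releases the mRNAs and rRNAs. Most of these then receive short polyA tails. The mRNAs encode subunits of respiratory complexes I, III and IV and of ATP synthase (complex V), the rRNAs belong to the mitochondrial ribosome, and the tRNAs serve translation inside the organelle. Mature tRNAs end in CCA and not in a long polyA tail.

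The libraries held 1524165 to 12256374 counts. Summed per mouse, Il6 had 0 to 5 counts in WT and 30 to 163 in GFAP-IL6 mice, and Gfap, the astrocyte filament gene, 15.5 to 23.3 against 80.4 to 150.1 CPM, which are counts scaled to a library total of 1000000. Neuron markers were present in every mouse (5165 to 6113 CPM over 5 genes). The mouse WT 3 stood apart, with 3952 CPM on 5 choroid plexus markers (Ttr, Folr1, Kl, Clic6 and Kcne2) against 79.9 to 747 in the other 5 mice, and it had the fewest counts, 7852743. Microglia markers summed to 198 to 219 CPM in WT and 291 to 380 in GFAP-IL6 mice, and endothelial markers to 114 to 119 and 133 to 223. In bulk tissue, fewer cells of a type and less RNA per cell cannot be told apart.

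The sequences of 4 tRNA genes are shown because their values between cDNA amounts are described one by one. They were read from the transcripts of GENCODE vM21 on GRCm38 (mm10), run 5′ to 3′ in the sense of the gene, and are written with T. The first 3 are the tRNA genes with the most counts, for valine, cysteine and methionine, and mt-Tw, for tryptophan, is the tRNA gene with lower values at 1 ng. Capitals mark the anticodon.
mt-Tv (chrM:1025-1093, + strand): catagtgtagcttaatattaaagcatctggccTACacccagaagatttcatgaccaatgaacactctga
mt-Tc (chrM:5192-5257, - strand): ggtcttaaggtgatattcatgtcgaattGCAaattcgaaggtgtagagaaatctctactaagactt
mt-Tm (chrM:3845-3913, + strand): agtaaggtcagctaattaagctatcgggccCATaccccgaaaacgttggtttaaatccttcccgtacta
mt-Tw (chrM:4950-5016, + strand): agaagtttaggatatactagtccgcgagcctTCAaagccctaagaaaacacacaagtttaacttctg

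Counts differed by several orders of magnitude between mitochondrial genes. The 37 genes held 8.0% to 12% of the counts of a library, with a median of 9.32%. Both rRNA genes together took 3.75% to 7.53%, the mRNA genes 3.65% to 4.58% and the tRNA genes 0.128% to 0.397%. Of all mitochondrial counts, mt-Rnr2, the RNA of the large subunit of the mitochondrial ribosome, took 43.5% ± 3.60 (SD, n = 6 mice). The share of mt-Cytb, the cytochrome b of complex III, was 13.6% ± 1.98, that of mt-Rnr1, the RNA of the small subunit, 12.1% ± 0.710, and that of mt-Nd1, a subunit of complex I, 12.01% ± 1.07.

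Levels of genes of different length were compared as CPM per kb. The study itself did not normalize by length, as only 3' ends are sequenced. The scale can thus place a short gene above a longer one with more counts. Over all libraries mt-Tv had 42255 counts and mt-Nd4 777743. Per kb mt-Rnr2 was highest, at 26798 ± 5445 (SD, n = 6 mice), above mt-Rnr1 in 6 of 6 mice. Then came mt-Rnr1 at 12216 ± 1713, mt-Nd1 at 12068 ± 1128 and mt-Cytb at 11377 ± 918, and these 3 were not separated beyond their spread, since each was above the next in 4 of 6 mice. The tRNA genes mt-Tv (5654 ± 1359) and mt-Tc (5176 ± 1233) and the complex I subunit genes mt-Nd4 (4950.2 ± 361) and mt-Nd2 (4632 ± 378) followed, in an order that also varied between mice. The tRNA gene mt-Tm had 4429.5 ± 611 and was above mt-Tp, for proline, in 6 of 6 mice. Of the 24 neighbouring pairs among the 25 highest genes, 11 had the same order in all 6 mice.

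The mRNA genes fell into a group with many counts and a group with almost none. Counts over all libraries were 10 for mt-Co2 and 5 for mt-Co3, which encode subunits of complex IV, 9 for mt-Atp6 and 1 for mt-Atp8, which encode subunits of ATP synthase, and 1 for the complex I gene mt-Nd4l. The tRNA genes mt-Ts1, mt-Td, mt-Tk, mt-Tg and mt-Th were at 0 in all 24 libraries, and mt-Tn, mt-Ty and mt-Te had 6, 18 and 171 counts in all. In total 24 genes, 8 mRNA, 2 rRNA and 14 tRNA genes, had at least 10 counts in every library.

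**Figure D1:**
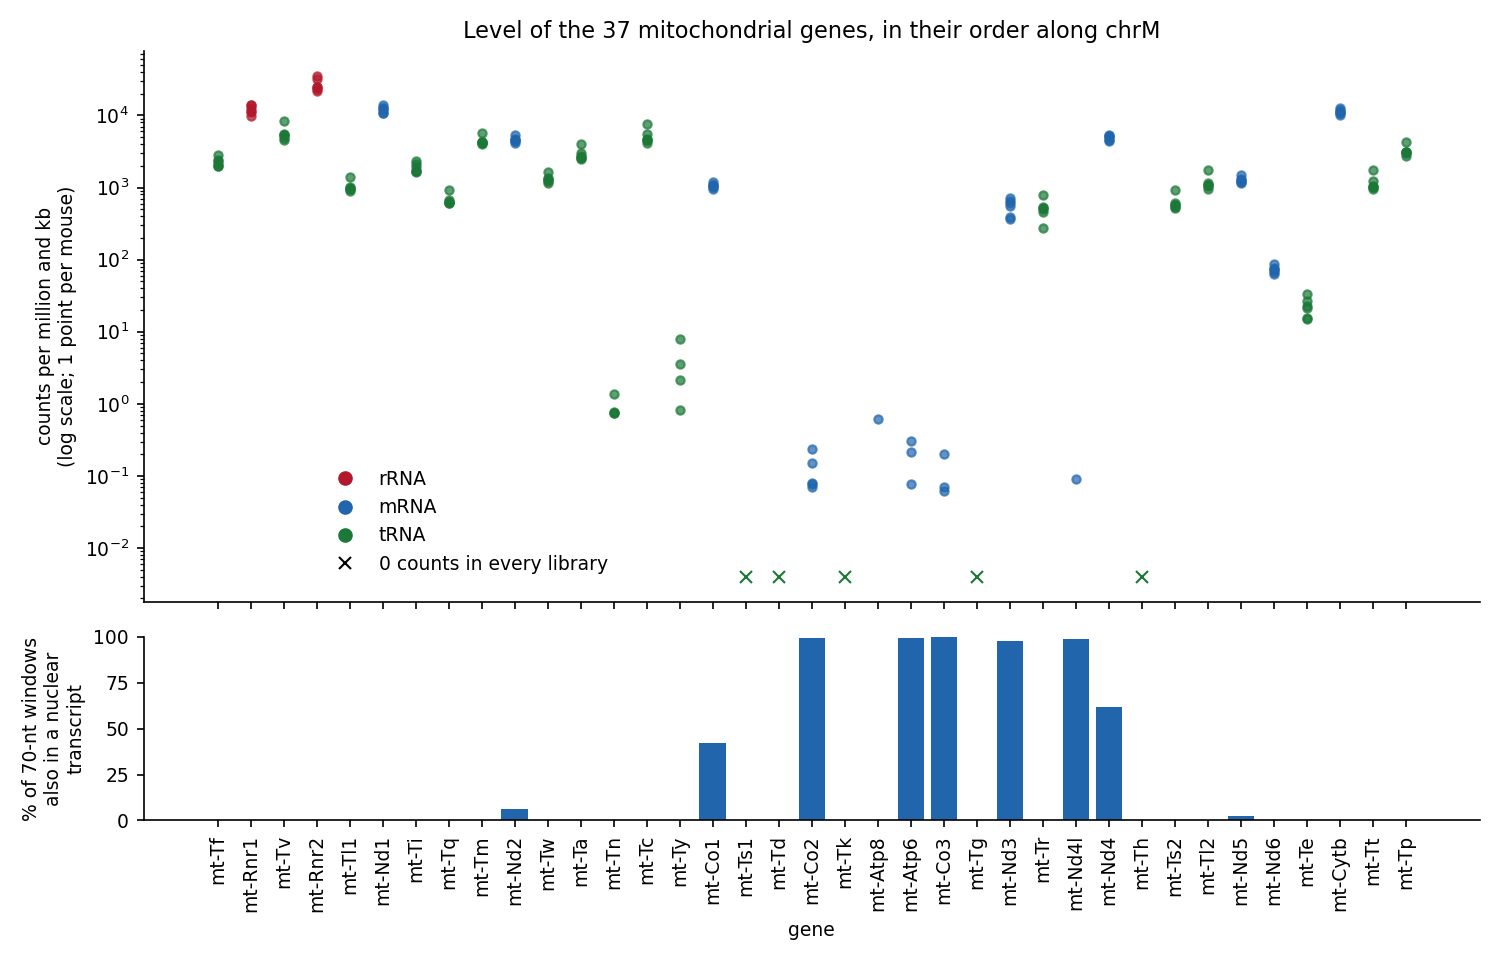
Upper panel, level of each mitochondrial gene in each mouse, as CPM per kb on a log scale, with genes in their order along chrM and colours for rRNA, mRNA and tRNA genes; crosses are genes with 0 counts in every library. Lower panel, percent of the 70-nt windows of each gene that occur unaltered in a nuclear transcript. The 5 mRNA genes with at most 10 counts lie between mt-Co1 and mt-Nd4, where 99.5% of the windows of mt-Co2 are shared.

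Of the 12 genes with at most 18 counts in all, 9 lie in one stretch. Along chrM, 11 genes lie whole between position 6390, inside mt-Co1, and position 11042, inside mt-Nd4. Of these 4 were at 0, 5 had between 1 and 10 counts, and mt-Nd3 (21627 counts) and mt-Tr (3797 counts) had more. Over this stretch GENCODE vM21 lists 7 pseudogenes on chromosome 1, within chr1:24611535-24616197 and all on the - strand, that align to mt-Co1, mt-Co2, mt-Atp6, mt-Co3, mt-Nd3, mt-Nd4l and mt-Nd4 and follow each other in that order. Their aligned parts were identical to mt-Co2 over 681 nt (Gm28661), mt-Atp6 over 678 nt (Gm10925), mt-Co3 over 783 nt (Gm28437), mt-Nd4l over 294 nt (Gm10222) and the first 876 nt of mt-Nd4 (Gm28439). None of these 7 pseudogenes is a row of the count table, and the authors counted only reads that aligned to a single place.

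The share of each gene that also occurs in a nuclear transcript was measured in windows of 70 nt, about the length of a read. Every window but a few at the very end was shared for mt-Co2 (99.5%), mt-Atp6 (99.5%), mt-Co3 (99.9%) and mt-Nd4l (98.7%), 4 of the 9 genes of the stretch with at most 10 counts. The share was 0% for both rRNA genes, mt-Cytb, mt-Nd1 and mt-Nd6, 6.19% for mt-Nd2, 2.22% for mt-Nd5, 42.1% for mt-Co1 and 61.7% for mt-Nd4. In the last 300 nt, nearest the polyA tail, it was 100% for mt-Co1, which had 1067 ± 74.8 CPM per kb, and 0% for mt-Nd4, which had 4950.2 ± 361. mt-Nd3 is an exception, with 97.8% of windows shared and 549.7 ± 143 CPM per kb. Of the 9 genes with at most 10 counts in the stretch, 5 had no shared window, namely mt-Atp8 with 1 count and the tRNA genes mt-Ts1, mt-Td, mt-Tk and mt-Tg at 0. Copies outside chromosome 1 were also found. Gm13340 on chromosome 2 aligned to mt-Co1 over all 1545 nt at 97.6% identity. Also on chromosome 2 were Gm13341 for mt-Co2 (95.9%) and Gm13339 for 510 nt of mt-Nd2 (96.7%). On chromosome 13, Gm4076 aligned to 954 nt of mt-Nd5 (95.2%). As only annotated transcripts were searched, a copy outside them, such as between the pseudogenes, could not be found. mt-Th at 0, mt-Tn and mt-Ty lie outside the stretch. Whether the nuclear copies set these low counts was not tested.

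The next 3 stretches are shown to mark where copies on chromosome 1 end or differ. In mt-Nd4 the copy Gm28439 ends after base 876 of the gene, and capitals mark the bases beyond it, which lie outside that copy.
mt-Nd4 bases 817 to 936 (chrM:10983-11102, + strand): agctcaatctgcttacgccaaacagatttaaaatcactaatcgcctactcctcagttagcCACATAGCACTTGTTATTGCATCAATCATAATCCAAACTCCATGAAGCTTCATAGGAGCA
mt-Nd3 and its copy Gm28438 differ over 345 aligned nt at 1 base, T3C, counted from 1 at the 5′ end of the gene with the mitochondrial base first, and the capital marks it.
mt-Nd3 bases 1 to 72 (chrM:9459-9530, + strand): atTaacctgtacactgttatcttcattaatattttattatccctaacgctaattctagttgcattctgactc
mt-Co1 and Gm29216 differ over the last 483 nt of the gene at 1 base, A1066T, and the capital marks it.
mt-Co1 bases 997 to 1135 (chrM:6324-6462, + strand): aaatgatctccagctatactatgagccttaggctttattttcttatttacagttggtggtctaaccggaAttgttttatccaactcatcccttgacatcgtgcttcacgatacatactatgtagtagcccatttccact

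On the - strand lie 9 of the 37 genes, among them mt-Nd6, the only mRNA gene there, which encodes a subunit of complex I. It had 73.5 ± 7.84 CPM per kb, the lowest of the mRNA genes with at least 10 counts in every library. The tRNA genes mt-Tc, mt-Tp and mt-Ta are also on this strand and were among the tRNA genes with the most counts, whereas mt-Tn and mt-Ty, on either side of mt-Tc, had 6 and 18. The strand setting used in counting is not stated, so reads of these genes and of RNA from the opposite strand cannot be told apart.

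The 3 classes of gene differed between cDNA amounts in different ways. With 1 ng instead of 2 ng, the share of counts on tRNA genes rose 1.92-fold within set A and 1.31-fold within set B, in 6 of 6 mice each. The share on rRNA genes was 1.22 and 1.21 times as high, again in 6 of 6 mice, and that on mRNA genes 0.911 and 0.950 times as high, lower in 6 of 6 mice. In set A the tRNA share of the 6 mice was 0.128% to 0.220% at 2 ng and 0.252% to 0.397% at 1 ng, with no overlap. In set B the ranges were 0.151% to 0.249% and 0.201% to 0.300% and overlapped, as the values of WT 3 lay above those of the other mice at both amounts. Samples are pooled before tagmentation in this method. Each mouse's share of the counts of a set varied by 0.199 to 1.02 percentage points across the amounts and letters. The libraries of each amount may have shared a reaction. At 1 ng the tRNA share differed 1.29-fold between the letters, so the amount and the reaction cannot be told apart.

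**Figure D2:**
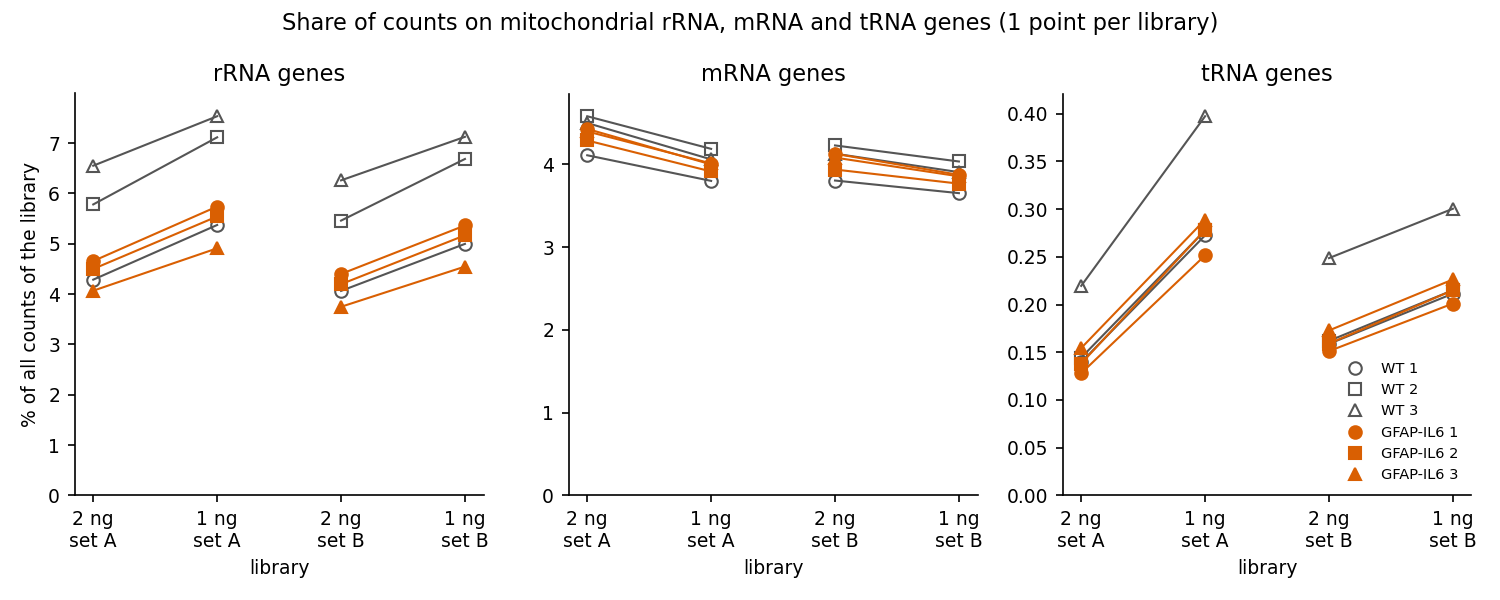
Percent of all counts of a library on mitochondrial rRNA, mRNA and tRNA genes, with 1 point per library and a line joining the 2 ng and 1 ng libraries of a mouse within set A and within set B (open grey, WT; filled orange, GFAP-IL6). The tRNA lines rise from 2 ng to 1 ng in every mouse, more steeply in set A, and WT 3 is the top tRNA line in each set.

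Gene by gene, the tRNA genes carried most of the calls. In edgeR's quasi-likelihood test with Benjamini-Hochberg adjustment, 15 of the 24 mitochondrial genes tested were higher at 1 ng in set A, against 9.08% of all genes tested, and 3 were lower, against 9.02%. In set B 12 were higher, against 3.71%, and 2 were lower, against 2.62%. The calls for higher values comprised 13 of 14 tRNA genes and both rRNA genes in set A, and 11 of 14 tRNA genes and mt-Rnr1 in set B. With the mouse as a block, as the libraries of a mouse share their RNA, 17 of 24 were higher and 7 lower in each set, against 15.9% and 16.0% of all genes in set A and 10.7% and 10.6% in set B. The same 17 to 7 split is seen in the signs of the log2 fold changes without the block.

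mt-Tp, the tRNA gene with the smallest adjusted p in set A, had 110 to 183 CPM (median 139) over the 6 mice at 2 ng and 254 to 367 CPM (median 289) at 1 ng. Its groups do not overlap, and the log2 fold change was 1.13 ± 0.0828 (SE from libraries of 6 mice with no term for the mouse, edgeR adjusted p = 5.54e-11). Such p-values between amounts do not cover the spread between reactions. In set B mt-Tp had 155 to 249.8 CPM at 2 ng and 195 to 301 CPM at 1 ng, a log2 fold change of 0.38 ± 0.0989 (edgeR adjusted p = 0.0176). mt-Tv had 226 to 417 CPM (median 266) at 2 ng and 403 to 758 CPM (median 496) at 1 ng in set A, with WT 3 the highest at both amounts. Within a mouse the ratio of 1 ng over 2 ng was 1.95, 1.89 and 1.82 in the WT mice and 1.79, 2.02 and 1.75 in the GFAP-IL6 mice. For mt-Tc the ratio was 2.04, 1.99 and 1.87 in WT and 2.14, 2.27 and 2.06 in GFAP-IL6 mice, and for mt-Tm 2.06, 2.19 and 1.96 and then 2.28, 1.98 and 1.95. In set B the ratios of mt-Tc were 1.56, 1.45 and 1.46 in WT and 1.36, 1.47 and 1.43 in GFAP-IL6 mice, so all 6 mice were above 1 in both sets for this gene.

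Over the 13 tRNA genes other than mt-Tw, the mean ratio ran from 1.72 for mt-Tr, the arginine tRNA, to 2.16 for mt-Tl2, a leucine tRNA, in set A, and from 1.28 to 1.45 in set B. mt-Tf (phenylalanine), mt-Tl1 (leucine), mt-Ti (isoleucine) and mt-Ta (alanine) had mean ratios of 1.96, 2.10, 1.98 and 1.97 in set A and of 1.32, 1.40, 1.30 and 1.28 in set B. mt-Tw had 78.3 to 133 CPM at 2 ng and 71.8 to 99.5 CPM at 1 ng in set A, ratios of 0.719 to 0.980, and was below 1 in 6 of 6 mice in both sets. Its log2 fold change was -0.16 ± 0.0961 in set A and -0.24 ± 0.0794 in set B, not called (edgeR adjusted p = 0.273 and 0.0790) but called as lower with the mouse as a block (edgeR adjusted p = 0.0262 and 0.000226). mt-Tw, which starts at position 4950, overlaps the end of mt-Nd2 at 4951, whose ratios were 0.889 and 0.944. In the same way mt-Ti, which starts at 3706, overlaps the end of mt-Nd1 at 3707. The ratios there were 1.98 and 1.30 for mt-Ti and 0.889 and 0.936 for mt-Nd1. The part of such overlaps in the ratios was not tested.

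Among the mRNA genes, mt-Nd3 and mt-Co1 fell at 1 ng in both sets. mt-Nd3 had 269 to 649.5 CPM (median 438) at 2 ng and 74.9 to 158 CPM (median 138) at 1 ng in set A. Its log2 fold change was -1.73 ± 0.159 (SE from libraries of 6 mice with no term for the mouse, edgeR adjusted p = 3.87e-09). In set B mt-Nd3 had 145 to 253 CPM and then 58.4 to 109 CPM, and the log2 fold change was -1.11 ± 0.143 (edgeR adjusted p = 9.76e-06). In neither set did the amounts overlap. mt-Co1, the catalytic subunit of complex IV, had 1697 to 2337 CPM at 2 ng and 1275 to 1470 CPM at 1 ng in set A, a log2 fold change of -0.57 ± 0.0657, and -0.57 ± 0.0690 in set B (edgeR adjusted p = 2.57e-07 and 3.40e-06). In both, windows of the last 300 nt were shared with a nuclear copy, 98.7% in mt-Nd3 and 100% in mt-Co1. Whether this sharing bears on the ratios was not tested. The other mRNA genes moved less. mt-Cytb had mean ratios of 1.01 and 0.956, mt-Nd1 0.889 and 0.936, mt-Nd4 0.932 and 1.09, mt-Nd5 0.845 and 0.918, and mt-Nd6 1.16 and 1.23. Only mt-Nd5 of these was called without the block, as lower in set A (log2 fold change -0.20 ± 0.0603, edgeR adjusted p = 0.0220), and mt-Nd4 was the gene whose ratio lay below 1 in every mouse in set A and above 1 in every mouse in set B.

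mt-Rnr2 had 31773 to 52981 CPM at 2 ng and 38586 to 60691 CPM at 1 ng in set A, so the amounts overlapped between mice while the ratio within a mouse was 1.15 in WT 3 and 1.21 to 1.27 in the others. In set B it was 1.13 in WT 3 and 1.22 to 1.23 in the others. mt-Rnr1 had ratios of 1.17 to 1.204 in set A and 1.17 to 1.23 in set B. Both rRNA genes were above 1 in 6 of 6 mice in each set. Their log2 fold changes were 0.34 ± 0.0908 and 0.30 ± 0.0728 in set A (edgeR adjusted p = 0.00914 and 0.00353). In set B they were 0.28 ± 0.0965 for mt-Rnr2, called only with the mouse as a block, and 0.29 ± 0.0783 for mt-Rnr1 (edgeR adjusted p = 0.0879 and 0.0221).

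**Figure D3:**
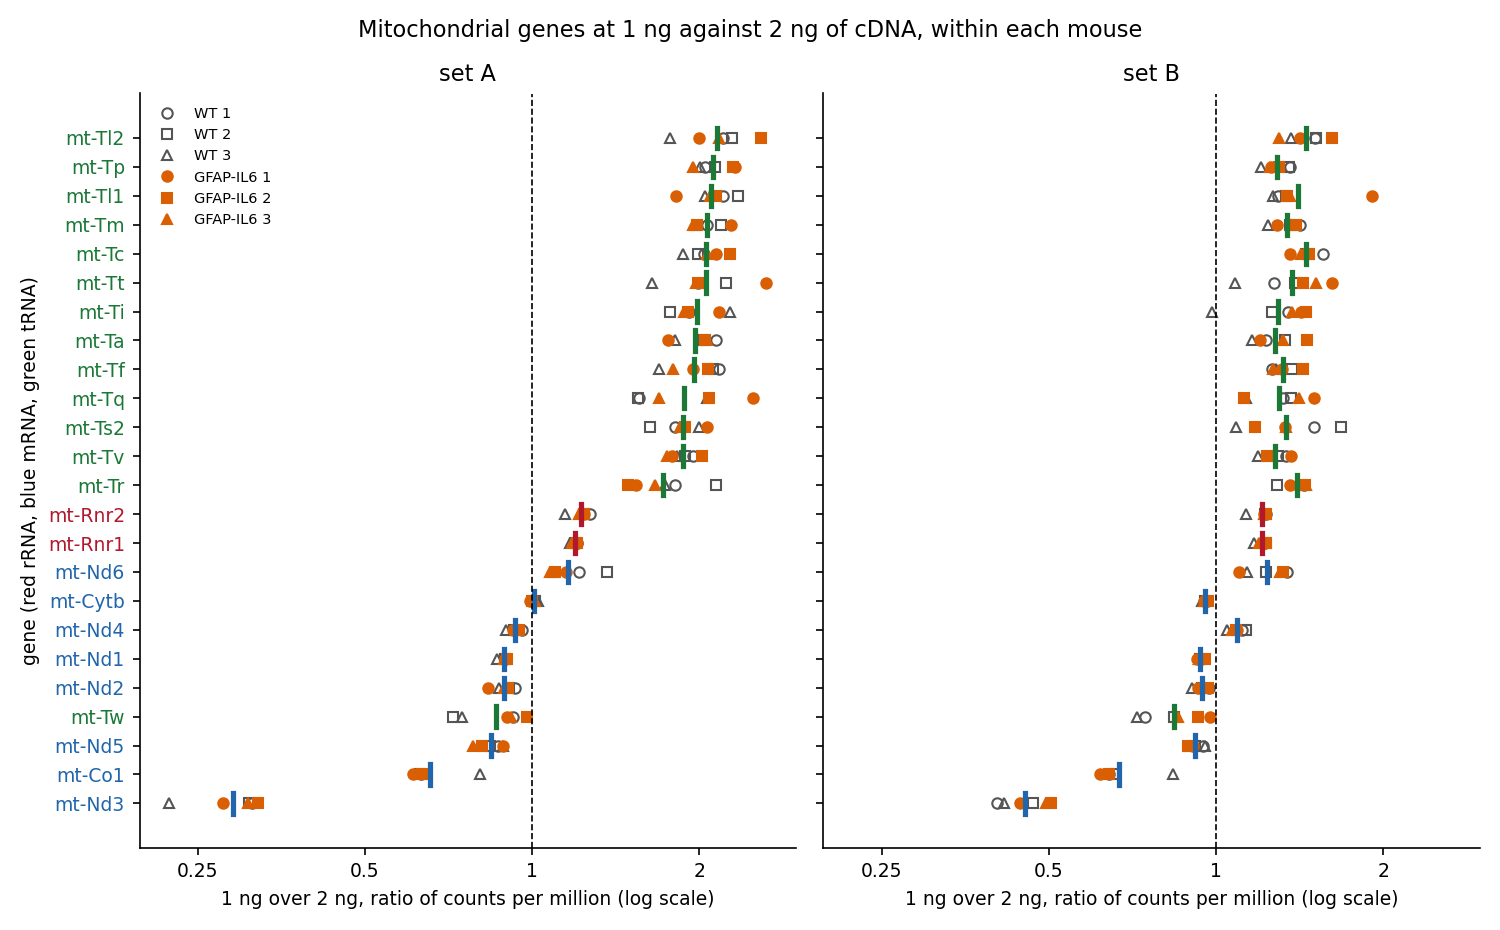
Ratio of CPM at 1 ng over 2 ng within each mouse, on a log scale, for the 24 mitochondrial genes with at least 10 counts in every library, in set A and set B; each point is a mouse, each short vertical bar the mean over 6 mice, and the dashed line marks a ratio of 1. The tRNA genes other than mt-Tw sit to the right of the rRNA genes in set A (mean ratios 1.72 to 2.16), and mt-Nd3 and mt-Co1 are the lowest in both sets.

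Single genes were also tested by a two-sided exact permutation of the sign of each mouse's log2 ratio. With 64 sign patterns the smallest p is 0.03125, and its adjusted value over 96 tests between amounts and letters was 0.0370. In set A 16 of 24 genes were above a ratio of 1 in 6 of 6 mice, against 13.0% of the 9190 genes with at least 10 counts in every library, and 7 were below, against 20.1%. In set B it was again 16 above, against 10.6%, and 7 below, against 13.0%. The log2 ratio in set A minus that in set B had the same sign in 6 of 6 mice for 18 of 24 genes, against 18.4%. Whether the shift with the amount differed between genotypes was tested by exact permutation of the ratios of 3 WT and 3 GFAP-IL6 mice, which cannot give a p under 0.1, and the smallest adjusted value over 96 tests was 0.60.

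The tRNA genes are about as long as a read, at 59 to 75 nt, so nuclear genes of like length were set beside them. Of 11 nuclear genes of up to 100 nt tested in set A, 2 were higher at 1 ng and 1 was lower, with a median log2 fold change of -0.19, against 13 of 14 higher and a median of 1.03 for the mitochondrial tRNA genes. In set B 1 of 10 such nuclear genes was higher and 1 lower, with a median of -0.14, against 11 of 14 and 0.43. Among nuclear genes of 100 to 500 nt, 29 of 69 were higher and 7 lower in set A, a median of 0.27, and 15 of 72 were higher and 5 lower in set B, a median of 0.12. The median over all genes tested was -0.01 in both sets.

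Between letters the tRNA share differed in opposite directions at the 2 amounts. At 2 ng the tRNA share in set A was 0.877 times that in set B, lower in 6 of 6 mice, and at 1 ng it was 1.29 times as high, higher in 6 of 6 mice. At 2 ng edgeR called mt-Nd3 (log2 fold change 1.13 ± 0.145) and mt-Nd4 (0.27 ± 0.0638) higher in set A, 2 of 24 genes against 13.2% of all genes tested. It called mt-Tm (-0.35 ± 0.0894) and mt-Tp (-0.33 ± 0.0974) lower, 2 of 24 against 8.02%. At 1 ng the tRNA genes mt-Tp, mt-Tf, mt-Tt and mt-Tl2 were higher in set A, by 0.39 to 0.48 on the log2 scale, 4 of 24 against 0.144%, and none was lower, against 0.594%. Of these 24 genes at 1 ng, 14 had an unadjusted p under 0.05, for which no share over all genes was taken. DESeq2's Wald test called 7, against 2.09% of all genes with an adjusted p. With the mouse as a block 8 were higher and 8 lower at 2 ng, against 18.1% and 16.2%, and 20 were higher and 0 lower at 1 ng, against 2.74% and 2.90%.

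GFAP-IL6 and WT mice were compared to ask whether the transgene goes with another level of mitochondrial transcripts. After the 4 libraries of each mouse were summed, the share of counts on chrM was 8.76%, 10.8% and 11.4% in the WT mice and 9.37%, 9.07% and 8.64% in the GFAP-IL6 mice. The share on mRNA genes was 4.05% ± 0.211 in WT and 4.03% ± 0.0664 in GFAP-IL6 mice (SD, n = 3 mice each). That on rRNA genes was 6.01% ± 1.14 and 4.80% ± 0.384, and that on tRNA genes 0.235% ± 0.0568 and 0.202% ± 0.0138. The WT mice were the more variable group for each class, and the groups overlapped in all of them.

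Calls in this comparison depended on the tool and the filter. Of 25 genes tested, 0 passed an adjusted p under 0.05 in edgeR with its filter on low counts, against 1.80% of all genes tested, and 7 had an unadjusted p under 0.05. DESeq2 also called 0, against 1.80%. With no filter on low counts edgeR called 4 of 32 as lower, mt-Tv, mt-Tt, mt-Rnr2 and mt-Tl2 (adjusted p = 0.00134, 0.00296, 0.00540 and 0.0117), against 0.257%. Over all 24 libraries with the mouse as a random block, limma-voom called 3 of 24 as lower, mt-Rnr1, mt-Rnr2 and mt-Nd5 (adjusted p = 1.78e-05, 0.000561 and 0.00372), against 0.823%. That fit applied 1 correlation between libraries of a mouse to all genes, so it may understate the spread between mice for a given gene. Within the sets 0 of 24 or 25 were called each time by edgeR, against 1.03% in set A at 2 ng, 1.10% in set A at 1 ng, 1.08% in set B at 2 ng and 1.08% in set B at 1 ng, and DESeq2 also called 0. In edgeR, unadjusted p-values under 0.05 numbered 8, 6, 6 and 5 in these sets, and 1, 1, 1 and 3 without WT 3. The share of all genes with an unadjusted p under 0.05 was not taken. These numbers, and the 7 on summed libraries, thus show no excess by themselves. Log2 fold changes of GFAP-IL6 over WT were below 0 for 22 of the 25 genes, with a median of -0.21 against -0.01 over all genes tested, and without WT 3 for 17 of 25, with a median of -0.05 and 0 unadjusted p-values under 0.05. Since all genes of a mouse share its library, the 25 signs are not independent.

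mt-Rnr2 had 36384, 49952 and 56047 CPM in the WT mice and 39149.7, 38577 and 34256 CPM in the GFAP-IL6 mice. WT 1 lies among the GFAP-IL6 mice and the other WT mice lie above them, with a log2 fold change of -0.38 ± 0.133 (SE; edgeR adjusted p = 0.295). mt-Rnr1 had 11053, 13506 and 13492 CPM in WT and 11952, 10556 and 9438 CPM in GFAP-IL6 mice, a log2 fold change of -0.28 ± 0.112 (edgeR adjusted p = 0.411). Without WT 1 mt-Rnr2 was called as lower (log2 fold change -0.55, edgeR adjusted p = 0.0140), and without WT 3 its log2 fold change was -0.22 (edgeR adjusted p = 0.653).

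Among the tRNA genes, mt-Tv had 364, 386 and 574 CPM in WT and 310.4, 339 and 367 CPM in GFAP-IL6 mice, the smallest adjusted p of all mitochondrial genes (log2 fold change -0.41 ± 0.143, edgeR adjusted p = 0.281, and 0.00134 with no filter on low counts). mt-Tc had 314, 275 and 497 CPM against 301, 302 and 361 CPM, and mt-Tm 292, 295 and 391 against 279, 286 and 292. In each of these WT 3 was the highest of the 6 mice. mt-Tp had 207, 205 and 286 CPM in WT and 184, 201 and 208 in GFAP-IL6 mice, and mt-Tl1 71.7, 75.5 and 106 against 67.0, 72.4 and 74.8. mt-Tf had 133, 145 and 192 CPM against 133, 163 and 158, mt-Ta 179, 181 and 277 against 169, 189 and 205, and mt-Ti 114, 116 and 159 against 115, 133 and 148. Again the highest value of each was that of WT 3, and without it the log2 fold changes of mt-Tc, mt-Tf and mt-Ta turned from -0.21, -0.07 and -0.21 to 0.11, 0.11 and 0.05.

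Of the mRNA genes, mt-Nd5 was called lower in GFAP-IL6 mice by limma-voom and none was called by edgeR on the summed libraries of all 6 mice. mt-Nd5 had 2366, 2682 and 2263 CPM in WT and 2204, 2345 and 2112 CPM in GFAP-IL6 mice, overlapping groups with a log2 fold change of -0.16 (95% interval -0.36 to 0.03, edgeR adjusted p = 0.674). mt-Cytb had 12900.2, 13669.9 and 11542 CPM in WT and 14634, 12525 and 12819.9 CPM in GFAP-IL6 mice, with a log2 fold change of 0.04 (95% interval -0.16 to 0.24). mt-Nd1 had 10457, 11942 and 13224 CPM against 10409, 11209 and 12054 (interval -0.33 to 0.10), and mt-Nd4 6301, 7217 and 7308 against 6171, 6731 and 7201 (interval -0.28 to 0.11). None of these 3 was called by edgeR or limma-voom, and the intervals give the range of differences left by these mice. mt-Nd6 had 38.8, 33.1 and 45.0 CPM in WT and 37.3, 35.3 and 39.4 in GFAP-IL6 mice, and mt-Nd3 135, 229 and 250.1 against 128, 210.0 and 196, all with overlapping groups. Without WT 1 the log2 fold change of mt-Nd3 was -0.47 (edgeR adjusted p = 0.211), and in set A at 2 ng it was then called as lower (edgeR adjusted p = 0.0157). mt-Tw was the only gene of 25 with at least 10 counts in every mouse in which the groups did not overlap, at 87.3, 91.9 and 108 CPM in WT and 82.2, 85.3 and 78.5 CPM in GFAP-IL6 mice (exact permutation test, p = 0.1, the smallest 3 mice against 3 can give). That is 1 of 25 lower, against 3.99% of genes, and 0 of 25 higher, against 9.21%.

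**Figure D4:**
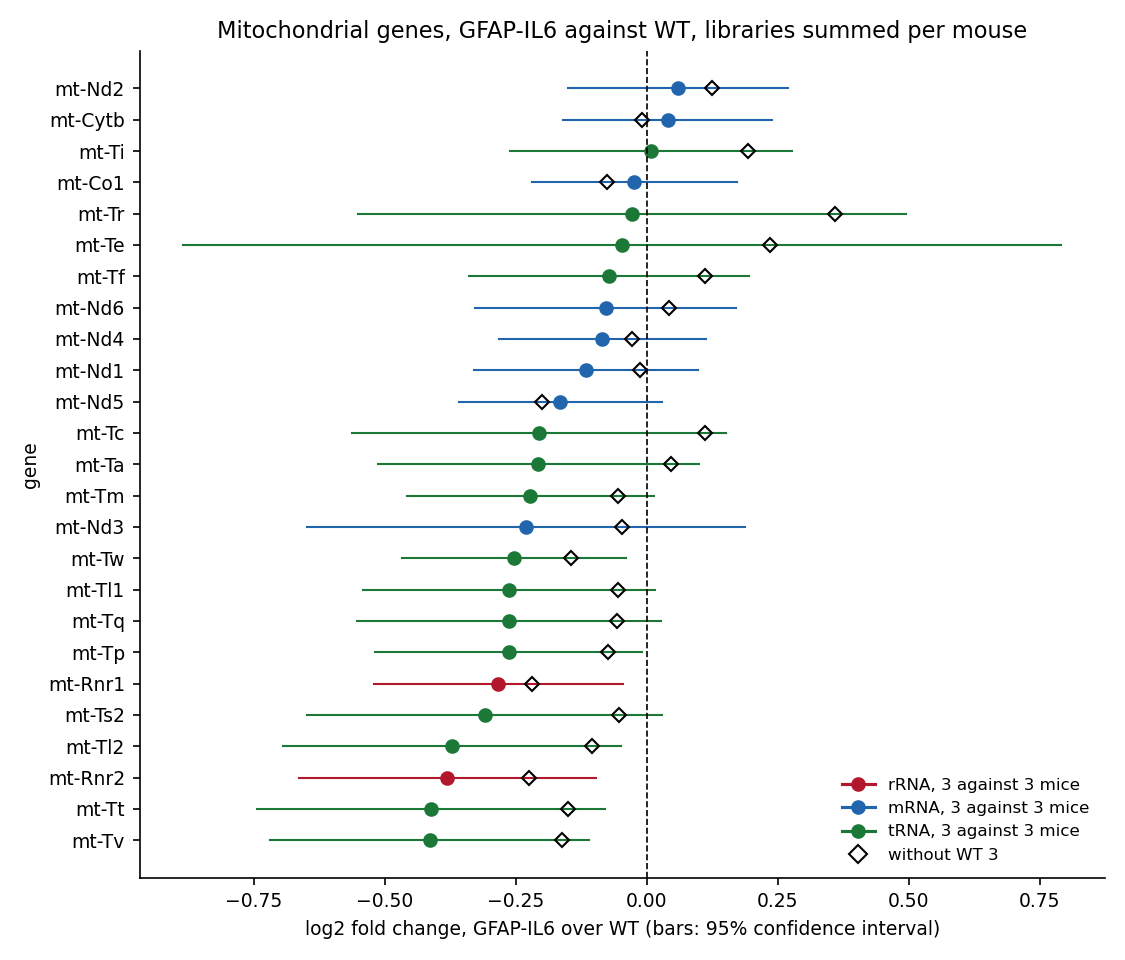
Log2 fold change of GFAP-IL6 over WT for the 25 mitochondrial genes tested, from libraries summed per mouse (3 against 3 mice), with 95% confidence intervals as bars and colours for rRNA, mRNA and tRNA genes; open diamonds are the values without WT 3. In this edgeR fit 0 genes were called. The median of the 25 genes was -0.21 with WT 3 and -0.05 without it.

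WT 3 had the highest CPM of the 6 mice in each of the 4 sets for 16 of 24 mitochondrial genes, against 3.05% of the 9190 genes. These were 13 tRNA genes, mt-Rnr2, mt-Nd1 and mt-Nd6. Not among them were mt-Rnr1, mt-Ti, mt-Nd2, mt-Co1, mt-Nd3, mt-Nd4, mt-Nd5 and mt-Cytb. For mt-Cytb, mt-Co1 and mt-Nd5, WT 3 had the lowest summed value of the 3 WT mice. It was also the mouse with the most choroid plexus markers and the fewest counts, and the part of either in these levels was not tested.

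Of 136 nuclear genes for the same machinery tested in 8 lists, edgeR called 0 as higher and 0 as lower in GFAP-IL6 mice, with 2 unadjusted p-values under 0.05. DESeq2 also called 0. In limma-voom, with the limit given above, 7 of 135 were called as lower, against 0.823%. They were Cox5a, Cox4i1, Cox6a1 and Ndufa4 of complex IV, Ndufc2 and Ndufb6 of complex I and Usmg5 of complex V. The lists held the nuclear subunits of complexes I to V (36, 4, 9, 11 and 18 genes tested), factors of mitochondrial DNA maintenance and transcription (15), of mitochondrial RNA processing and stability (26) and mitochondrial aminoacyl-tRNA synthetases (17). Their median log2 fold changes ran from -0.11 for complex IV to 0.03 for maintenance and transcription, beside -0.01 over all genes tested. In the same fit, 4 of 5 microglia markers were higher, among them Aif1 (log2 fold change 1.22 ± 0.0974, edgeR adjusted p = 2.57e-06) and Cx3cr1 (0.72 ± 0.141, edgeR adjusted p = 0.0119), as were Flt1 and Ly6c1 of 5 endothelial markers. Between cDNA amounts, 23 of 134 genes of the 8 lists were higher and 11 lower at 1 ng in set A, against 9.08% and 9.02% of all genes tested, and 6 and 9 of 135 in set B, against 3.71% and 2.62%.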

How the data were processed

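Frontal cortex RNA of 6 mice gave 24 libraries. Per the study's methods, the authors trimmed polyA stretches of at least 12 nt, used STAR 2.4 with the mm10 genome, and passed reads aligned to a single place to featureCounts with GENCODE genes. They deposited raw counts per gene and library, not normalized, from which CPM and shares were computed here with all counts of a library as the denominator.

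Counts were tested over all genes with edgeR 4.0.16 in R 4.3.3 (quasi-likelihood test, TMM normalization, filterByExpr), with an adjusted p under 0.05 as the call. Genotypes were compared on libraries summed per mouse and within each set, and amounts and letters with genotype in the model. A further fit had the mouse as a block, because its 4 libraries are of 1 animal. Single genes were compared by exact permutation tests over mice, and sums over genes were not tested. Reads without molecular identifiers are not independent molecules.

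Positions and sequences are from GENCODE vM21 (GRCm38), whose spans equal the deposited length for all 37 genes. Nuclear copies were found among its transcripts with blastn 2.17.0 and by exact windows of 70 nt. Alternatives were DESeq2 1.42.0 and its size factors, other filters on low counts, a fold change threshold, library sizes without chrM, other denominators, limma 3.58.1, and leaving out each mouse. The scripts were tested on simulated data.

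Values per mouse are given for both rRNA genes, the 3 mRNA and 3 tRNA genes with the highest share of counts, mt-Nd6, and the 6 further genes with the smallest adjusted p among those called. mt-Co1, mt-Nd2, mt-Nd5, mt-Tw and others named beside them were chosen after their values were seen. The test of the amounts between letters, the nuclear genes by length and the counts of genes without overlap were also added after seeing the data. The genes and lists were chosen with earlier results of these data known.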

Additional observations from a re-analysis of the deposited data

Results flagged for a closer look

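The effect of the cDNA amount, as log2 of 1 ng over 2 ng, differed between sets A and B for 18 of 24 mitochondrial genes, against 18.4% of the 9190 genes with at least 10 counts in every library, by an exact paired permutation test over 6 mice (p = 0.03125 each, the smallest it can give, adjusted 0.0417 over 24 tests). For the tRNA genes called, the effect was larger in set A, by 0.72 for mt-Tp, 0.62 for mt-Tm, 0.62 for mt-Ta, 0.61 for mt-Ti, 0.58 for mt-Tt, 0.57 for mt-Tl2 and 0.57 for mt-Tf. It was larger by 0.55 for mt-Tv, 0.53 for mt-Tq, 0.50 for mt-Tc and 0.30 for mt-Tr. The difference for mt-Nd3 was -0.65, its fall being steeper in set A. Smaller differences of set A minus set B were -0.22 for mt-Nd4, -0.12 for mt-Nd5, -0.0857 for mt-Nd2, -0.0745 for mt-Nd1, 0.0738 for mt-Cytb and -0.0228 for mt-Rnr1. Each of these had the same sign in 6 of 6 mice. As libraries of a set may have shared a reaction, the test does not cover the spread between reactions.

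In 9 of 96 groups of 6 ratios 1 mouse lay far from the others, where chance gives about 1 in 20 for a single group. The groups share mice and libraries, so they are not independent and the 9 do not show an excess. WT 3 was the mouse apart in 7 of these 9. Its ratio of 1 ng over 2 ng was 0.865 for mt-Nd1 in set A (others 0.892 to 0.899), 0.805 for mt-Co1 in set A (0.609 to 0.643) and 0.837 for mt-Co1 in set B (0.618 to 0.653). In set B it was 1.13 for mt-Rnr2 (1.22 to 1.23) and 0.984 for mt-Ti (1.26 to 1.45). Its ratio of A over B at 2 ng was 1.04 for mt-Rnr1 (1.08 to 1.09) and 0.687 for mt-Ti (0.817 to 0.891). GFAP-IL6 1 lay apart for mt-Tl1, with 1.91 for 1 ng over 2 ng in set B (1.27 to 1.36) and 1.03 for A over B at 1 ng (1.32 to 1.36).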

How the results depend on the processing

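The number of mitochondrial genes called between genotypes on summed libraries, 0 as reported, was 4 with no filter on low counts, 3 with limma-voom and 0 to 2 when a mouse was left out (2 without WT 1). Within sets, no filter gave 1 in set A at 2 ng, 2 in set A at 1 ng, 3 in set B at 2 ng and 2 in set B at 1 ng, and leaving out a mouse gave 0 to 3, 0 to 1, 0 to 3 and 0 to 1. A replicate block on the mouse numbers gave 2 in set A at 1 ng and 0 on summed libraries. These numbers do not pair the mice, as same-numbered WT and GFAP-IL6 mice did not deviate together (r = -0.05, -0.04 and -0.06). For the cDNA amount, a threshold of 1 on the log2 fold change left 10 of 18 genes in set A and 1 of 14 in set B, and the replicate block, here the same animal, gave 24 in set B. Leaving out a mouse gave 17 to 19 in set A and 7 to 18 in set B (7 without WT 2 or GFAP-IL6 2, 8 without GFAP-IL6 3). For the letters at 2 ng, 4 as reported, the threshold gave 1, no filter 8, the block 16 and leaving out a mouse 3 to 8 (8 without WT 3). At 1 ng, also 4, these were 0, 14, 20 and 0 to 10 (10 without WT 3, 0 without WT 2, GFAP-IL6 2 or GFAP-IL6 3), and DESeq2 gave 7. For most of these alternatives the share over all genes was not taken. The numbers thus show how the calls move with the setting, and not an excess among mitochondrial genes.

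The log2 ratio of the mRNA share at 1 ng over 2 ng with counts not on chrM as the denominator was -0.121 for set A and -0.0613 for set B, and with protein-coding counts not on chrM -0.115 and -0.0604. The share of chrM counts gave a log2 of GFAP-IL6 over WT of 0.110 for mt-Nd1, 0.136 for mt-Nd4 and -0.00141 for mt-Tm with all chrM counts as the denominator, and of -0.0604, -0.0312 and -0.171 without the rRNA genes in it, so the sign turned for mt-Nd1 and mt-Nd4. Leaving out a mouse turned the sign of some genotype log2 fold changes. They ran from -0.0462 (without GFAP-IL6 1) to 0.0939 for mt-Cytb, which also was -0.00848 without WT 3. They ran from -0.377 to 0.111 for mt-Tc, -0.191 to 0.0425 for mt-Nd6, -0.188 to 0.112 for mt-Tf and -0.328 to 0.0467 for mt-Ta, the upper value being that without WT 3 each time. For mt-Ti, 0.00902 as reported, they ran from -0.0892 without WT 1 to 0.194 without WT 3, and were -0.0704 without WT 2 and -0.0713 without GFAP-IL6 3. With limma-voom mt-Cytb was -0.000755 and mt-Tf 0.0196, and with DESeq2 mt-Ti was -0.00341. None of these was called. The causes were not tested. Of the other values of single genes under all alternatives, 502 kept their direction and side of the threshold, 22 passed it and 19 no longer did.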

Other observations

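Red blood cell markers (Hba-a1, Hba-a2, Hbb-bs, Hbb-bt and Alas2) also had higher values with 1 ng of cDNA. In edgeR's quasi-likelihood test 4 of 5 were higher in set A, against 9.08% of all genes tested, with a median log2 fold change of 1.57. In set B 4 of 5 were higher, against 3.71%, with a median of 1.04. The median of the mitochondrial tRNA genes was 1.03 for set A, against 0.43 for set B. The globin genes among the red blood cell markers include near-identical copies. Reads aligning to more than 1 place were not counted, so globin counts may be incomplete.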
